A study of Mus musculus with 8 samples.

Results

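The 10 mesothelial marker genes Msln, Upk3b, Wt1, Krt19, Krt8, Krt18, Lrrn4, Upk1b, Muc16 and Bnc1 were followed across 2 classes of interstitial cells of Cajal and the muscle coat of the mouse small intestine. They were chosen by name, as genes known from mesothelium, but with earlier results of these data known. Counts of how many were called are therefore descriptions and not independent support. The genes make up 10 of the 18193 genes that could be named on the array. Each gene was read from its brightest probe set, chosen by its mean over the 8 arrays from those annotated to that gene and no other, and the 16 probe sets for these genes are all given below. RNA came from BALB/c mice that were 6 to 9 days old, all from small intestine: 3 samples of ICC-DMP, 3 of ICC-MY and 2 of whole tunica muscularis, as the muscle layers of the gut wall are called. The labels name no genotype or treatment for any group. The isolation of the cells and the number of animals behind a sample are not given in the sources consulted. The labels use abbreviations alone, which in the field mean interstitial cells of Cajal (pacemakers of gut muscle that also relay nerve signals) of the deep muscular plexus (DMP) and of the myenteric plexus (MY).

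Mesothelium is the single layer of flat epithelial cells that covers the gut wall on its serosal side and lines the body cavities. Its cells keep epithelial features such as simple-epithelial keratins, apical surface glycoproteins and uroplakins, while sharing the transcription factor Wt1 with embryonic mesenchyme of the body cavities. The tunica muscularis lies directly beneath the serosa, so a preparation of the muscle coat can carry mesothelial cells, whereas interstitial cells of Cajal are not mesothelial cells.

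All 10 genes were high in the muscle coat and low in both classes of isolated cells. The mean log2 level over the 10 genes lay between 4.09 and 4.14 on the 3 ICC-DMP arrays, between 3.95 and 4.07 on the 3 ICC-MY arrays, and at 8.70 and 8.97 on the 2 tissue arrays. For each gene the highest of the 6 ICC arrays lay below the lower of the 2 tissue arrays, by 2.14 log2 units at the least (Upk1b) and 6.49 at the most (Upk3b). Over all genes 23.1% lay wholly below tissue in ICC-DMP and 20.7% in ICC-MY, and 15.5% and 13.4% wholly above, where 0 of the 10 lay. In limma, with adjustment over all genes, ICC-DMP differed from tissue in 10 of 10, all lower, where 7.32% of all genes were lower, and ICC-MY also in 10 of 10, where 9.78% were. None of the 10 was higher in either comparison, where 3.72% and 4.05% of all genes were. The median difference over the 10 was -5.02 in ICC-DMP and -4.83 in ICC-MY, against -0.04 and -0.02 over all genes. Both comparisons use the same 2 tissue arrays, so they are not separate evidence, and in RNA from many cells fewer cells of a type and less RNA per cell cannot be told apart.

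**Figure D1:**
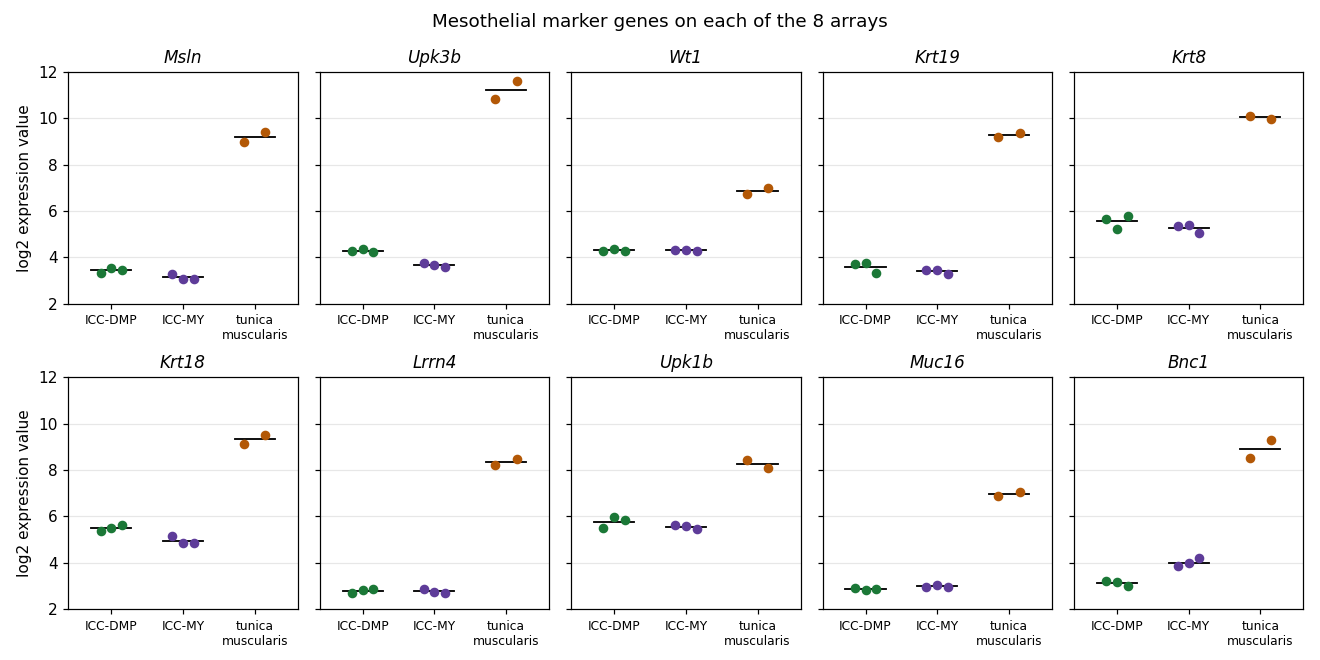
Log2 expression value (vertical axis) of each mesothelial marker gene on every array, by group (horizontal axis); a point is 1 array and a black line the group mean. The tissue points lie above all ICC points in every panel, and Bnc1 is higher in ICC-MY than in ICC-DMP.

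The marker genes of the other cell types set the frame for these values. ICC markers averaged 9.27 to 9.53 in ICC-DMP, 10.05 to 11.30 in ICC-MY and 7.82 to 8.61 in tissue, as means of log2 levels over 8 genes, with 3 of 8 higher in ICC-DMP and 6 of 8 in ICC-MY. Values spread less widely over probe sets on 2 arrays, replicate 1 of ICC-MY and replicate 1 of tissue, than on the rest (SD 1.98 and 2.06, against 2.22 to 2.31). The deposited values carry no detection calls, so whether a low value is background is not known, and differences from tissue are given on the log2 scale of the deposited values and not as folds. On the ICC-DMP arrays 5 of the 10 genes read below the array's median on all 3 arrays, and on the ICC-MY arrays 6 did, while all 10 lay above the 75th percentile on both tissue arrays.

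Surface glycoproteins came first among the members. Msln encodes mesothelin, a membrane-anchored glycoprotein of the mesothelial surface. It read 3.31, 3.53 and 3.46 on the ICC-DMP arrays, 3.29, 3.08 and 3.08 on the ICC-MY arrays, and 8.98 and 9.39 on the tissue arrays. Neither ICC class came near the tissue arrays. The difference from tissue was -5.75 (SE 0.17, adjusted p = 2.09e-06) in ICC-DMP and -6.03 (SE 0.17, adjusted p = 2.34e-06) in ICC-MY. Muc16 encodes a large membrane mucin that binds mesothelin. It read 2.89, 2.81 and 2.85 in ICC-DMP, 2.94, 3.04 and 2.97 in ICC-MY, and 6.87 and 7.04 in tissue. The ICC values lay close together and far from tissue. It was lower by limma in ICC-DMP (-4.11, SE 0.14, adjusted p = 2.09e-06) and in ICC-MY (-3.97, SE 0.14, adjusted p = 2.47e-06). Lrrn4 encodes a leucine-rich repeat membrane protein used as a mesothelial marker. Its 6 ICC values ran from 2.70 to 2.88, and it read 8.21 and 8.46 in tissue. Both classes were lower by nearly the same amount, -5.54 and -5.57 (SE 0.15 each). Of the 8 other mucin genes measured, 0 passed in limma in either comparison with tissue, with 1 at an unadjusted p under 0.05 in each. Their mean log2 level in tissue was 4.13 and 4.39, near the array medians of 4.23 and 4.18, so a lower value had little room. Muc13, a membrane mucin of the gut lining, and Muc5b, a gel-forming mucin, had the highest means of the 8. Muc13 differed by -1.47 in ICC-DMP and -1.40 in ICC-MY, and Muc5b by -0.19 and -0.04.

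The uroplakins are membrane proteins first described in the bladder lining, where they form rigid plaques, and Upk3b and Upk1b are also expressed by mesothelium. Upk3b had the largest difference of the 10 genes. It read 4.29, 4.35 and 4.24 in ICC-DMP, 3.77, 3.69 and 3.59 in ICC-MY, and 10.84 and 11.60 in tissue. The 3 groups did not overlap, with tissue far above both cell classes. The difference from tissue was -6.93 (SE 0.22) in ICC-DMP and -7.54 (SE 0.22) in ICC-MY. The dimmer Upk3b probe set gave -6.18 and -6.23, and there the ICC classes overlapped. The other 3 uroplakin genes, Upk1a, Upk2 and Upk3a, stayed near the tissue level. That level was itself low, with tissue means of 5.30, 5.31 and 3.15, so a lower value had little room. In limma 0 of 3 passed in either comparison with tissue, with 0 at an unadjusted p under 0.05, and their differences ran from -0.11 to 0.30 in ICC-DMP and from -0.12 to 0.14 in ICC-MY.

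Upk1b, a tetraspanin that pairs with the Upk3 proteins in the bladder, had 4 probe sets that disagreed in size but not in direction. Its brightest probe set read 5.51, 5.96 and 5.82 in ICC-DMP, 5.64, 5.58 and 5.46 in ICC-MY, and 8.43 and 8.10 in tissue. That probe set gave -2.50 in ICC-DMP (SE 0.19, adjusted p = 7.05e-05) and -2.71 in ICC-MY (SE 0.19, adjusted p = 4.19e-05), among the smallest differences of the 10 genes. The other 3 probe sets gave -4.92, -4.65 and -4.44 in ICC-DMP and -5.21, -4.93 and -4.54 in ICC-MY. The 4 probe sets had tissue means of 8.26 to 8.61, while ICC-DMP means were 5.77 for the brightest and 3.69 to 4.11 for the rest. The size of the Upk1b difference therefore depends on the probe set, and with its probe sets averaged it was -4.13 in ICC-DMP.

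The promoter windows of 4 members are shown as a description, and no expression result rests on them. Upk3b was taken for the largest difference and Krt8 and Krt18 as a keratin pair. Bnc1 was taken as the gene called between the ICC classes, a call lost in 6 of 18 alternatives. The windows are RefSeq sequences of build GRCm38.p6, 250 bases before to 50 after the annotated start, written 5′ to 3′ on the gene's strand. RefSeq windows were matched for 6 of the 10 genes, also including Lrrn4 and Muc16 but not Msln, Wt1, Krt19 and Upk1b. Capitals mark matches, on either strand, to any of 8 motifs. The M-CAT element of TEAD factors was searched as GGAATG. The WT1 and EGR family was searched as GCGTGGG and, in a second form, as GCGGGGG. The GC box of SP factors was searched as GGGCGG. For GATA factors the letters were AGATAA and, in a second form, TGATAA. The TATA box was searched as TATAAA, and the E-box of SNAI and ZEB factors as CACCTG. The GC box can overlap the second WT1 and EGR form, and the TATA box its own reverse complement. The Upk3b window lies at chr5:136038246-136038545 on the plus strand and holds 1 match, to M-CAT on the opposite strand.
Upk3b: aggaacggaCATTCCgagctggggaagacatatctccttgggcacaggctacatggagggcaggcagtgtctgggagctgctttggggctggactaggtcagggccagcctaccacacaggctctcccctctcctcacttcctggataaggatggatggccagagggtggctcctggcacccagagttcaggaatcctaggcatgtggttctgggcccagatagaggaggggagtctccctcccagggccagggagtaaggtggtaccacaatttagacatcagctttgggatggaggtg
The Krt8 window lies at chr15:102004293-102004592 on the minus strand and holds 4 matches, to the first GATA form, the E-box and the TATA box on both strands.
Krt8: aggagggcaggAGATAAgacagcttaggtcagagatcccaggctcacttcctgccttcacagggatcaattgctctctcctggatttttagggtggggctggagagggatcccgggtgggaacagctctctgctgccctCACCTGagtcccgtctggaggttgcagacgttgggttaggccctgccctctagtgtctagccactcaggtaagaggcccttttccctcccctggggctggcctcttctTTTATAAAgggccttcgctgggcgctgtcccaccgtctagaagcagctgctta
The Krt18 window lies at chr15:102027966-102028265 on the plus strand, on the same chromosome as Krt8, and holds 1 match, to CACCTG.
Krt18: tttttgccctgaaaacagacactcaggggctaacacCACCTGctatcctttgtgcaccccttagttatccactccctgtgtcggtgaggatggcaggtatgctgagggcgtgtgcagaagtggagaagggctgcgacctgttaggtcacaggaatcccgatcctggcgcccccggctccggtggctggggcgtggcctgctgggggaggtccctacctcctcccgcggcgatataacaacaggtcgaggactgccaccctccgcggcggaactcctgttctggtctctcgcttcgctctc
The Bnc1 window lies at chr7:81992250-81992549 on the minus strand, is 83.3% G and C against a median of 52.7% over all promoters, and holds 6 GC boxes and 2 matches to GCGGGGG.
Bnc1: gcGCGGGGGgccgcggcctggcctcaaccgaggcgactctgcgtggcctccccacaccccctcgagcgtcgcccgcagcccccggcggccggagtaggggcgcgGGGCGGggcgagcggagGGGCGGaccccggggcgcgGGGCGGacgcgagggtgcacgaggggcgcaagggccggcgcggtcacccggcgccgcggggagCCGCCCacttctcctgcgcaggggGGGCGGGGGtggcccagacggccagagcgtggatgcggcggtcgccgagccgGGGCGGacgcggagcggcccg
M-CAT was present in 2 of the 6 windows (Upk3b and Lrrn4) and in 14.7% of the 32851 promoters of this length in the table. CACCTG was present in 2 of 6 (Krt8 and Krt18) and in 20.2% of promoters. The GC box and the second WT1 and EGR form were each present in 1 of 6 (Bnc1), and in 35.7% and 10.8% of promoters. The first GATA form and the TATA box were each present in 1 of 6 (Krt8), and in 11.2% and 13.6%. The first WT1 and EGR form and the second GATA form were in 0 of 6, and in 5.04% and 9.05% of promoters. A match is a description of the letters in this window and does not show that a factor binds there.

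Keratins Krt8, Krt18 and Krt19 form the intermediate filaments of simple epithelia, Krt8 as the type II partner of the type I proteins Krt18 and Krt19. Intestinal epithelium expresses all of them as well, so by themselves they do not tell mesothelium from the gut lining. Krt19 read 3.73, 3.75 and 3.31 in ICC-DMP, 3.47, 3.44 and 3.28 in ICC-MY, and 9.21 and 9.35 in tissue. The ICC classes overlapped and both lay far under tissue. The difference from tissue was -5.69 in ICC-DMP (SE 0.18, adjusted p = 2.09e-06) and -5.88 in ICC-MY (SE 0.18, adjusted p = 2.34e-06) in limma. Krt8 read 5.67, 5.22 and 5.77 in ICC-DMP, 5.37, 5.42 and 5.05 in ICC-MY, and 10.12 and 9.97 in tissue. The 3 Krt8 probe sets gave -4.49, -5.19 and -4.46 in ICC-DMP and -4.76, -5.46 and -4.70 in ICC-MY. Krt18 read 5.38, 5.48 and 5.64 in ICC-DMP, 5.16, 4.84 and 4.85 in ICC-MY, and 9.12 and 9.51 in tissue. The partner gene thus had the smallest keratin difference, -3.81 in ICC-DMP and -4.36 in ICC-MY (SE 0.18 each). Intestinal epithelial markers, as means over 19 genes, read 3.89 to 3.98 in ICC-DMP, 3.98 to 4.17 in ICC-MY, and 4.92 and 6.80 in tissue. In limma 6 of 19 were lower in ICC-DMP and 5 of 19 in ICC-MY. More were lower by over 1 log2 unit, 11 in ICC-DMP and 9 in ICC-MY. By the brightest probe set Fabp1 had the largest differences, -6.83 in ICC-DMP and -7.03 in ICC-MY (SE 0.98 each). With its probe sets averaged these were -4.584 and -4.675, smaller than those of Fabp2 (-6.591 and -6.526). The tissue arrays differed widely for several of these markers, as given below. The part of gut-lining cells in the keratin values was not tested. Unlike Msln and Lrrn4, Krt8 and Krt18 read above the array median on the ICC arrays.

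Of 12 other keratin genes, 2 were lower in each ICC class than in tissue and 0 were higher. These were Krt7, another simple-epithelial keratin of mesothelium (-4.26 and -4.49, SE 0.20), and Krt14, best known from basal layers of stratified epithelia (-3.39 and -3.29, SE 0.22, and -2.22 and -2.10 with its probe sets averaged). The median over the 12 was -0.11 in ICC-DMP and -0.12 in ICC-MY. The mean log2 level of the 12 in tissue was 4.82 and 4.66, so for the dim ones a lower value had little room. Keratin genes therefore differed among themselves, those called lower than tissue being Krt7, Krt8, Krt14, Krt18 and Krt19.

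Wt1 and Bnc1 encode nuclear proteins, Wt1 a zinc finger transcription factor needed for the mesothelium and its derivatives, and Bnc1 (basonuclin) a zinc finger protein of epithelial and germ cells. Wt1 read 4.26, 4.35 and 4.29 in ICC-DMP, 4.31, 4.30 and 4.30 in ICC-MY, and 6.72 and 7.01 in tissue. The 6 ICC values were almost the same on every array. The difference from tissue was -2.56 in both classes (SE 0.14, adjusted p = 1.71e-05 in ICC-DMP and 1.58e-05 in ICC-MY). Bnc1 read 3.19, 3.16 and 2.98 in ICC-DMP, 3.84, 3.97 and 4.21 in ICC-MY, and 8.50 and 9.30 in tissue. All 3 ICC-MY arrays lay above all 3 ICC-DMP arrays, and tissue lay far above both. Its difference from tissue was -5.79 in ICC-DMP and -4.89 in ICC-MY (SE 0.24 each).

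The comparison of ICC-DMP with ICC-MY asked whether the genes also separated the 2 cell classes. Bnc1 was lower in ICC-DMP by 0.90 on the log2 scale (-0.90, SE 0.22, adjusted p = 0.0383, and 0.0164 with the replicate number as a block). It was the only one of the 10 called, so 1 of 10 was lower, where 3.30% of all genes were, and 0 of 10 higher in limma, where 5.36% were; 2 of the 10 were higher at an unadjusted p under 0.05. With the block, 1020 genes were lower and 1597 higher over all genes, against 601 and 976 without it. Bnc1 no longer passed when ICC-DMP replicate 1, 2 or 3 was left out (adjusted p = 0.115, 0.12 and 0.141), when ICC-MY replicate 2 or 3 was (0.0995 and 0.127), or when arrays were centred on medians (0.0642). Bnc1 lay below the array's median in both classes, and has 1 probe set.

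The remaining differences between the classes were small. Upk3b (0.61, SE 0.20, adjusted p = 0.114) and Krt18 (0.55, SE 0.16, adjusted p = 0.0894) were the largest, with ICC-DMP arrays all above ICC-MY arrays, and Msln (0.29, SE 0.16, adjusted p = 0.416) did not overlap either. Upk3b passed in 6 of 18 alternatives and Krt18 in 3 of 18, always as higher in ICC-DMP, but the dimmer Upk3b probe set gave 0.06 (SE 0.15) and the average of both 0.33. Krt8 (0.27, SE 0.19), Upk1b (0.21, SE 0.17), Krt19 (0.19, SE 0.16) and Lrrn4 (0.03, SE 0.13) overlapped between the classes. Muc16 differed by -0.13 (SE 0.12) and Wt1 by 0.00 (SE 0.13). Of the 10 genes, 3 had all ICC-DMP arrays above ICC-MY and 2 all below, where 13.9% and 11.7% of all genes did.

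**Figure D2:**
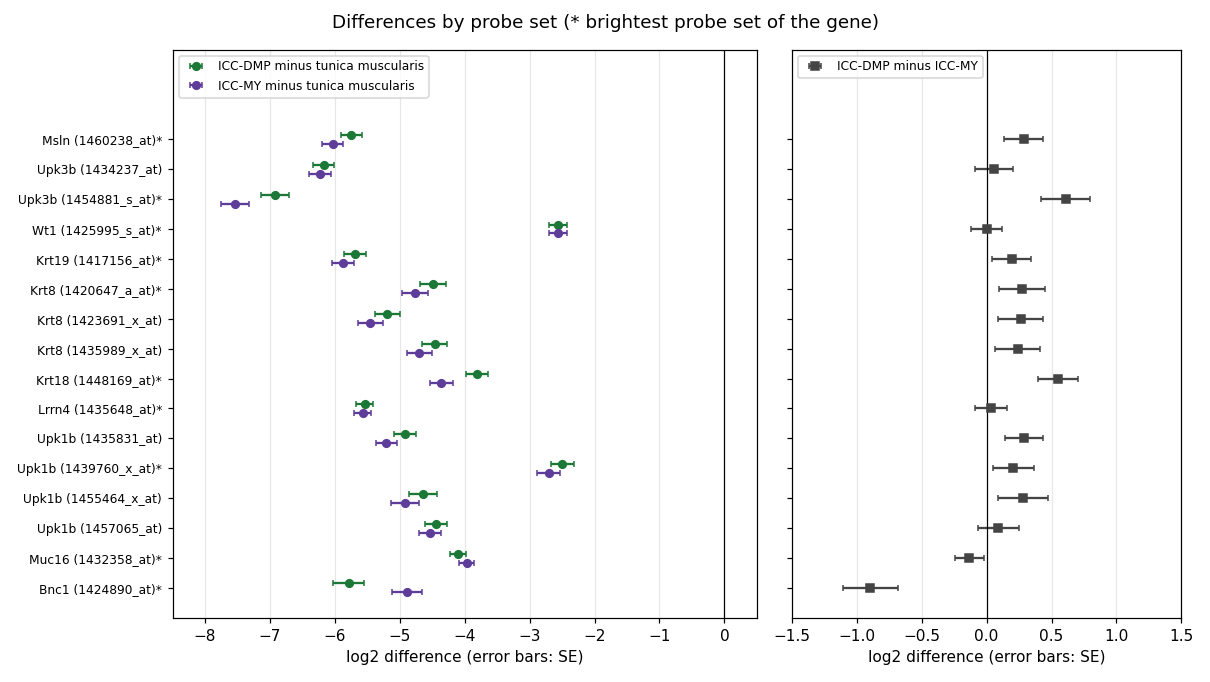
Log2 difference (horizontal axes) of each of the 16 probe sets of the marker genes (rows), with standard errors; left, each ICC class minus tunica muscularis, and right, ICC-DMP minus ICC-MY. Every left-hand value lies between -7.54 and -2.50, and on the right the Bnc1 value of -0.90 lies farthest from 0.

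Further mesothelial genes were read from a list of 20, of which 19 were measured. In ICC-DMP 12 of 19 were lower than in tissue, 1 was higher and 6 did not pass. In ICC-MY 14 were lower and 0 higher. At an unadjusted p under 0.05 there were 15, the 14 and Thbd. Thbd went the other way, higher in ICC-MY than in tissue (0.97, SE 0.30, adjusted p = 0.0734 by limma), and differed by 0.04 in ICC-DMP. The medians were -2.31 and -2.20. Gpm6a, a membrane glycoprotein of mesothelium that neurons express too, was lower, with differences of -7.0 (SE 0.34) in ICC-DMP and -7.86 in ICC-MY. With its probe sets averaged these were -6.41 and -6.87. Efemp1, a matrix protein gene, followed at -6.25 (SE 0.45) and -7.52, the secreted protease inhibitor gene Slpi at -4.42 (SE 0.24) and -4.48, and Krt7 as given above. Between the ICC classes 18 of these 19 did not pass.

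Aldh1a2 was the only one of these further mesothelial genes called higher than in tissue, and in ICC-DMP alone. It encodes a retinaldehyde dehydrogenase that makes retinoic acid and that mesothelium expresses. It read 11.80, 12.02 and 11.53 in ICC-DMP, between 7.86 and 8.74 in ICC-MY, and 10.32 and 10.80 in tissue. Tissue lay between the ICC classes, with no overlap. It was higher than tissue in ICC-DMP (1.22, SE 0.29, adjusted p = 0.0324), lower in ICC-MY (-2.36, SE 0.29, adjusted p = 0.000986) and differed between the classes by 3.58 (SE 0.26, adjusted p = 0.000102). The call in ICC-DMP was lost in 6 of 18 alternatives: without tunica muscularis replicate 1 (adjusted p = 0.18), without ICC-DMP replicate 1, 2 or 3 (0.105, 0.115 and 0.0543), without the 2 narrow-range arrays (0.106) and with a trended robust prior (0.0756). Of 11 retinoid genes, 1 was lower and 2 were higher in ICC-DMP relative to tissue, while in ICC-MY 2 were lower and 1 higher. Over all genes 7.32% were lower and 3.72% higher in ICC-DMP, and 9.78% and 4.05% in ICC-MY. Aldh1a3, of the same enzyme family as Aldh1a2, was higher by 2.17 (SE 0.33) in ICC-DMP and lower in ICC-MY (-1.38, lost in 5 of 18 alternatives). With its probe sets averaged these were 1.19 and -0.81. The receptor gene Rarb was lower in ICC-DMP (-2.38, SE 0.18). The gene higher in ICC-MY was Aldh1a1, also of this family (1.76, SE 0.45, adjusted p = 0.0345 by limma), and its call was lost in 10 of 18 alternatives.

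Epithelial junction genes, which mesothelial cells share with other epithelia, were lower for 7 of 19 members in each class, with 0 higher in ICC-DMP and 1 in ICC-MY. Perp, a desmosome-associated membrane protein gene, was lower at -3.31 in ICC-DMP and -3.66 in ICC-MY (SE 0.17), and the polarity gene Pard6b at -2.64 and -3.28 (SE 0.23). With the Pard6b probe sets averaged its differences were -2.316 and -2.815. Perp and Pard6b both followed the 10 marker genes in being low in each ICC class. Dsp, the desmoplakin gene, was lower in ICC-DMP (-3.64, SE 0.43, or -2.63 with its probe sets averaged) and higher in ICC-MY (1.60, adjusted p = 0.0432). The junction genes called in ICC-MY thus did not share 1 direction, by Dsp alone, and its call there was not put through the alternatives.

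**Figure D3:**
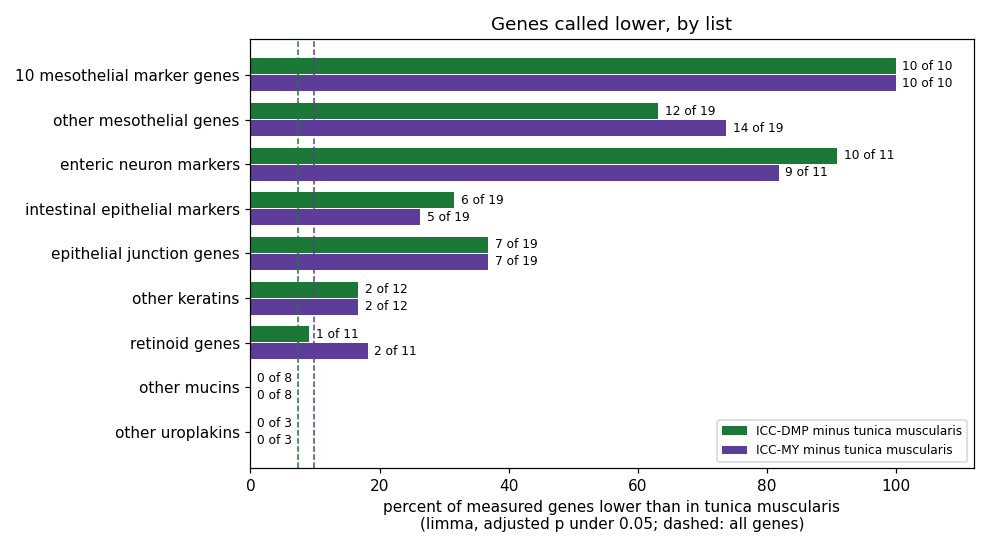
Percent of measured genes lower than in tunica muscularis (horizontal axis) for each gene list (rows), for ICC-DMP and ICC-MY; counts stand beside the bars and dashed lines give the share of all genes, 7.32% and 9.78%. All 10 mesothelial marker genes were lower in both, against 2 of 12 other keratins and 0 of 3 other uroplakins. These 2 lists had low mean log2 levels in tissue (4.66 to 4.82 and 4.45 to 4.72, against 8.70 and 8.97), with little room to be lower. Of 19 intestinal epithelial markers, 11 in ICC-DMP and 9 in ICC-MY were lower by over 1 log2 unit, more than were called.

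The 2 tissue arrays held similar levels of the 10 genes. Replicate 2 minus replicate 1 ran from -0.33 (Upk1b) to 0.80 (Bnc1), with a median of 0.27, and 8 of 10 were higher in replicate 2. The median over all genes was 0.10, and over the 5524 genes whose tissue mean fell within the range of the 10 genes it was 0.57. Intestinal epithelial markers behaved otherwise: their difference ran from -1.41 to 5.41 with a median of 1.79, and 8 of 19 exceeded 2. Fabp1 and Fabp2, fatty acid binding proteins of absorptive cells, read 7.0 and 7.08 in replicate 1 and 11.29 and 11.38 in replicate 2. The member keratins differed by less, with Krt8 at -0.15, Krt19 at 0.14 and Krt18 at 0.38.

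**Figure D4:**
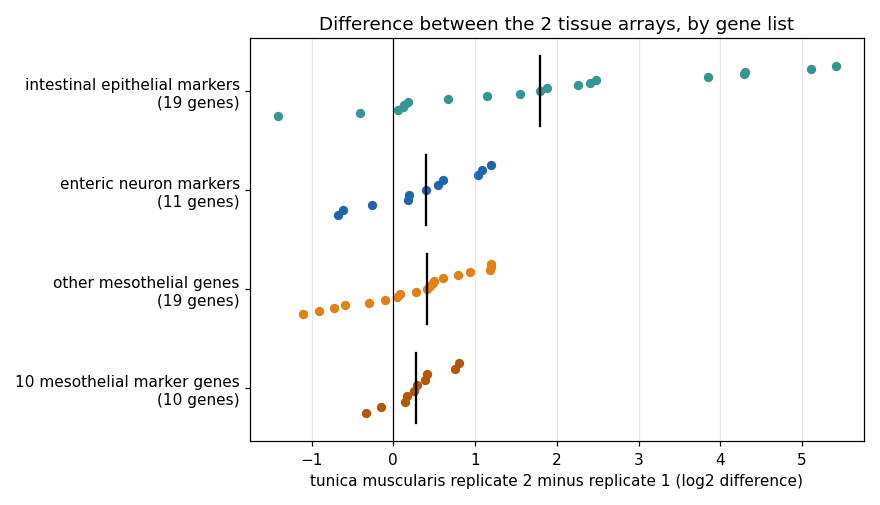
Tunica muscularis replicate 2 minus replicate 1 (log2 difference, horizontal axis) for each gene of 4 lists (rows); a point is 1 gene and a black line the list median. The mesothelial marker genes lie between -0.33 and 0.80, whereas intestinal epithelial markers reach 5.41.

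Markers of other cell types differed from list to list. Over all genes 7.32% were lower and 3.72% higher in ICC-DMP, and 9.78% and 4.05% in ICC-MY. In a list of 7 genes 1 call is 14.3%, not far above the shares lower. Enteric neuron markers were lower for 10 of 11 members in ICC-DMP and 9 of 11 in ICC-MY, with mean log2 levels of 3.92 to 3.99, 4.21 to 4.24 and, in tissue, 7.51 to 7.84. Macrophage markers were lower for 4 of 7 in each class, at 4.22 to 4.31, 4.46 to 4.52 and 5.91 to 6.38. Smooth muscle markers were lower for 4 of 8 in ICC-DMP and 7 of 8 in ICC-MY, and enteric glia markers for 2 of 5 in each. Endothelial markers were lower for 3 of 7 in ICC-DMP, with 1 higher, and for 1 of 7 in ICC-MY. Fibroblast markers were lower for 1 of 7 in ICC-DMP (median -0.07) and 4 of 7 in ICC-MY (median -1.13). The gene called in ICC-DMP was Pdpn (-1.44), which is also counted among the further mesothelial genes. The part of these cell types in the values of the 10 genes was not tested.

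Across the 8 arrays the 10 genes rose and fell together, with Pearson's r between 0.949 and 0.999 over the 45 pairs. All pairs share the gap between tissue and isolated cells, which sets most of this value. Bnc1 had the lowest r with the mean of the others (0.973) and Lrrn4 the highest. Among 2087 other genes with a range of at least 2 log2 units, the 10 most like the mean profile of the marker genes were Fstl5, Serpini1, Calcb, Edil3, Tac1, Cadps, Scn3b, Stmn2, Fgf9 and Elavl4, each with r of at least 0.999 over 8 arrays. Several are neuronal genes, such as Tac1 (substance P), Calcb (a calcitonin gene-related peptide), Stmn2 and Elavl4. Of the listed mesothelial genes Slpi came closest (r = 0.995), followed by Gpm6a and Krt7 (0.993 each). Other listed mesothelial genes did not share the profile, such as Aldh1a2 (0.178) and Thbd (-0.402).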

How the data were processed

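Gene expression was measured on single-channel oligonucleotide arrays in 8 RNA samples; about 50 ng of RNA went through a repeated round of amplification before biotin labelling, per the labels' protocols. Values were deposited on a log2 scale, 1 per probe set, and for them the submitters' processing notes name RMA and limma without versions or roles; no header states whether arrays were normalized together. No further normalization or filter was applied. Of 45101 probe sets, 64 controls were left out; 34945 named 1 gene in the platform annotation, 932 several, and 9160 are unnamed here. Titles gave the groups. A linear model over all 8 arrays (limma 3.58.1 in R 4.3.3, moderated with eBayes, residual degrees of freedom 5, prior 3.17) gave 2-sided p-values, adjusted by Benjamini-Hochberg over 18193 genes and called below 0.05. Errors are standard errors of that fit. The fit was tested on simulated data.

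The members and gene lists were chosen with earlier results of these data known. Named were all members; of other lists at most the 4 largest called differences, or the 2 with the highest means where 0 passed; and the 10 genes most like the members' mean profile. The other uroplakins, 3 in number, were all named although the rule gives 2, after their values were seen. Thbd and Pdpn were also named outside the rule, after their values were seen. Titles call samples biological replicates without naming animals, so p-values measure the spread between samples. Same-numbered samples of different groups deviated together (r between 0.155 and 0.608 in all 7 pairs). Differently numbered pairs reached 0.145 (ICC-DMP replicate 3 with tissue replicate 1) and 0.169 (ICC-MY replicate 3 with tissue replicate 2). With 2 tissue arrays, r with the first is the opposite of r with the second, so the pairs are not independent. The main fit left the replicate number out, and a block on it was fitted as an alternative. Alternatives were this block, quantile normalization, median centring, array weights, averaged probe sets, every probe set tested, removal of dim genes, 2-group fits, a trended robust prior, leaving out the 2 narrow-range arrays, and leaving out each array. Promoters came from RefSeq (GRCm38.p6). No set test was run.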

Additional observations from a re-analysis of the deposited data

Results flagged for a closer look

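Bnc1 differed between the ICC classes in its distance from tissue: the ICC-DMP difference from tunica muscularis was 0.90 log2 units further below 0 than the ICC-MY difference (-0.90, SE 0.22, adjusted p = 0.0383 by limma, lower in 3 of 3 ICC-DMP arrays than in every ICC-MY array). The mean level in ICC-DMP was 3.11 ± 0.11 (SD, n = 3). For ICC-MY it was 4.01 ± 0.18 (SD, n = 3), and tissue stood at 8.90 ± 0.57 (SD, n = 2). Over 18 alternatives the adjusted p ran from 0.00346 to 0.141, and 12 of 18 passed. The groups had too few arrays for a test of single outlying arrays.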

How the results depend on the processing

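All 10 genes stayed lower than tissue in both ICC classes in each of the 18 alternatives, with differences between -7.31 and -2.33 in ICC-DMP and between -7.96 and -2.42 in ICC-MY, and adjusted p of at most 0.000669 and 0.00134. Without each array in turn the count was 10 for both. With probe sets averaged Upk1b moved in size, to -4.13 in ICC-DMP and -4.35 in ICC-MY.

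Between the ICC classes 1 gene was lower; this was 0 with arrays centred on their medians and 0 to 1 without each array. None was higher by limma (2 at an unadjusted p under 0.05), but 1 was under quantile normalization and when only the 2 groups compared were fitted, 2 when arrays were weighted and 2 when both narrow-range arrays were dropped, and 0 to 1 without each array. The sign of the Wt1 difference, -0.00 as reported, turned to 0.017 under quantile normalization, 0.021 with median centring, 0.0015 with weighted arrays, 0.0025 without the narrow-range arrays, and ran from -0.026 to 0.018 without each array; Lrrn4 turned to -0.0095 without ICC-DMP replicate 3 and to -0.00042 without ICC-MY replicate 3, over a range up to 0.077. None of these passed.

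Over all genes the counts moved more, and the cause was not tested. Lower in ICC-DMP than tissue were 1332 (2091 with quantile normalization, 2434 with every probe set tested, 2160 without the narrow-range arrays, 837 to 1593 without each array). Higher were 677 (1038 with quantile normalization, 3223 with every probe set, 395 to 887). In ICC-MY 1780 were lower (3010 with every probe set, 1134 with only these 2 groups, 1310 to 1913), and 736 higher (1434 with quantile normalization, 2681 with every probe set, 386 with only these 2 groups, 411 to 1255). Between the classes 601 were lower in ICC-DMP (1020 with the replicate block, 1275 with quantile normalization, 1288 with weighted arrays, 1136 with every probe set, 1402 without the narrow-range arrays, 342 to 968), and 976 higher (1597 with the replicate block, 2199 with every probe set, 646 to 1124). The replicate block changed no call among the 10 genes. With every probe set tested more units are counted than genes. Precision is limited by the number of arrays and by low signal without detection calls in the ICC.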

Other observations

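Krt20, a keratin of intestinal epithelium, was the 1 further keratin called between the ICC classes, higher in ICC-DMP by 0.69. It read 4.16, 4.25 and 4.19 in ICC-DMP, 3.74, 3.44 and 3.37 in ICC-MY, and 3.55 and 3.68 in tissue, and the call was lost in 5 of the 17 alternatives that gave a value. These are low readings: the ICC-DMP values lay near the array medians of 4.22, 4.21 and 4.24, and the ICC-MY and tissue values lay below theirs. F11r, which encodes a junctional adhesion molecule of epithelia, was lower in ICC-DMP than in ICC-MY (-2.24, SE 0.21, adjusted p = 0.000335), and the desmosome gene Pkp2 was higher by 3.28 (SE 0.24, adjusted p = 0.000101), both called in 18 of 18 alternatives. With probe sets averaged the sizes were smaller, -1.04 for F11r and 1.36 for Pkp2.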
